A study of Mus musculus with 16 samples.

Results

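The 52 genes described here drive cell division: they license and copy DNA, supply nucleotides, and build and run the mitotic spindle. They were chosen by symbol, and all 52 were found among the 37003 genes of a table of read counts from brain endothelial cells (bECs) of mice. All 52 were among the 31085 genes with enough counts for testing. Each genotype, CTRL and YT-iKO, gave 4 libraries after sham surgery and 4 after MCAo. In YT-iKO mice both Yap and Taz (Wwtr1) were floxed and the transgene Pdgfb-iCreER-eGFP was present, in which the Pdgfb promoter drives a tamoxifen-inducible Cre in endothelial cells. CTRL animals were littermates without the transgene, and both genotypes received tamoxifen. Adult mice of both sexes were used, and each library was made from a pool of mice. MCAo is a closure of the middle cerebral artery, here for 30 min, with RNA taken 72 h after MCAo or sham surgery. Cells were enriched by CD31 and then sorted as living CD45- CD31+ cells, so a library can hold dividing and resting cells together. In bulk RNA of this kind, fewer dividing cells and less RNA per cell cannot be told apart. The question asked of these genes was whether their response to MCAo differed between the genotypes.

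A cell that enters the division cycle first loads the ring-shaped MCM helicase on its DNA with the help of Cdc6 and Cdt1, and in S phase Cdc45 and the GINS proteins join the ring to start unwinding. Cyclin-dependent kinases, switched on by cyclins E, A and B in turn, drive the cell through S phase into mitosis, where the spindle separates the chromosomes and the anaphase-promoting complex destroys the mitotic cyclins. Endothelial cells of the adult brain are mostly at rest, and they can re-enter the cycle when vessels grow after injury.

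Counts per library totalled 11418262 to 23074547. Values are CPM on library sizes corrected by TMM factors, which adjust for differences in composition. Yap1 was at 111 to 112 CPM in CTRL sham, 80.5 to 133 in CTRL MCAo, 38.6 to 59.2 in YT-iKO sham and 37.1 to 63.0 in YT-iKO MCAo. Wwtr1 was at 235 to 438 CPM in the 8 CTRL libraries and at 45.03 to 136 in the 8 YT-iKO libraries, so the groups did not overlap for either deleted gene. The 12 endothelial markers summed to 10909 CPM or more in every library. The libraries also differed in reads on genes that endothelium should not use, measured over 1266 olfactory, vomeronasal and taste receptor genes. This density was 0.186 CPM per kb of exon at the median and ran from 0.0295 in YT-iKO MCAo replicate 4 to 0.343, 0.391 and 0.401 in YT-iKO MCAo replicates 3 and 2 and YT-iKO sham replicate 3. These libraries stood apart in several results below.

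The members were chosen for their roles, and the sequences of their promoters are shown first because the best known switches of these genes lie there. Promoters of 300 bases were taken from RefSeq on GRCm38.p6, from 250 bases before to 50 after the start site, for the 43 members that could be matched by symbol. Of these, 32 genes (74.4%) held CCAAT and 23 (53.5%) held TTTGAA or TTCGAA, the letters of the cell cycle homology region (CHR), on either strand. Of the 27025 genes with a promoter in the same set, 41.1% held CCAAT and 21.7% held a CHR match. An E2F match, searched as TTTCCCGC, TTTCGCGC, TTTGCCGC or TTTGGCGC on either strand, was held by 8 members (18.6%) and by 2.6% of all genes. The CHR matches stood in 4 of 4 spindle checkpoint and APC/C genes, 8 of 9 spindle and cytokinesis genes and 2 of 2 chromosome structure genes. They also stood in 4 of 7 G2/M cyclins, kinases and transcription factors, 2 of 4 centromere and chromosomal passenger genes and 3 of 10 replication licensing and fork genes. The E2F matches stood in 6 of these 10 replication genes, 1 of 3 G1/S entry genes and 1 of 7 G2/M genes. Matches are of letters only and mark no measured binding. Mki67, Top2a and Ccnb2 are printed as 3 of the 6 members with the largest log2 fold changes after MCAo in CTRL, and Mcm6 because it was the most abundant member per kb. Of the other 3, Ube2c and Cenpf hold CCAAT and CHR matches, and E2f1 holds no match of the motifs searched. Capitals mark the matched letters, and overlapping matches run together.

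Mki67, chr7:135716330-135716629, minus strand: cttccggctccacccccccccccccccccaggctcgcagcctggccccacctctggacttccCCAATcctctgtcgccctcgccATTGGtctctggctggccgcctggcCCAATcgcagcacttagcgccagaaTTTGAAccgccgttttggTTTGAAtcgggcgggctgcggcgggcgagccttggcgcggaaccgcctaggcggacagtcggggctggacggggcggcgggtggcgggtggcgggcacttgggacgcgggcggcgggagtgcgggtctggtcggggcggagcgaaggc

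Top2a, chr11:99024140-99024439, minus strand: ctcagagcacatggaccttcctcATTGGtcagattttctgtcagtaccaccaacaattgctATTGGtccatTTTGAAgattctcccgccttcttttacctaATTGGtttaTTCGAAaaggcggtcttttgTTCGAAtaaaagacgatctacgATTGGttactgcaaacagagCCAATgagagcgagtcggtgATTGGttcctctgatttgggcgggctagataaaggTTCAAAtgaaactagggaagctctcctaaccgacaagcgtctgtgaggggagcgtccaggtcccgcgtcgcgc

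Ccnb2, chr9:70421505-70421804, minus strand: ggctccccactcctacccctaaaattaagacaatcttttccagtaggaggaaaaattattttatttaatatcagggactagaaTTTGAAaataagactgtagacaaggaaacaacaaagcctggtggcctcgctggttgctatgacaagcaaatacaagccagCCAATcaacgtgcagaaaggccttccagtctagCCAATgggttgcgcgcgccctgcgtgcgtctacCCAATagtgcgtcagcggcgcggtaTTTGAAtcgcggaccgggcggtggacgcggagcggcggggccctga

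Mcm6, chr1:128359656-128359955, minus strand: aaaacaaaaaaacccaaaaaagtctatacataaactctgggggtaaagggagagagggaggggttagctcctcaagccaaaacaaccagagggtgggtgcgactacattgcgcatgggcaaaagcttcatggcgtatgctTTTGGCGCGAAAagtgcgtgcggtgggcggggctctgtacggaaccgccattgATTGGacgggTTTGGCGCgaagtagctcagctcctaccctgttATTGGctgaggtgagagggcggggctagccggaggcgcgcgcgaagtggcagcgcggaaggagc

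The Mki67, Top2a and Ccnb2 promoters hold CCAAT and CHR matches and no E2F match, and the Mcm6 promoter holds CCAAT and E2F matches and no CHR match.

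The members ranged from genes that bECs clearly express to genes near the level of the receptor genes. Mcm6 was highest at 9.72 CPM per kb, followed by Pcna at 9.41, Mcm4 at 8.47, Mcm3 at 7.47 and Mcm7 at 4.47 (means of 16 libraries). Tk1 and Rrm1, which make nucleotides for DNA, stood at 3.51 and 3.02 CPM per kb, and Kif23, a kinesin of cytokinesis, at 2.14. By contrast, 31 of 52 members were at or under 1 CPM per kb, among them Mki67 at 0.722, Top2a at 0.557 and Cdk1 at 0.528. For the median member the level was 3.68 times that of the receptor genes in the same library, and for 22 members this median ratio was under 3. Bub1, a checkpoint kinase, and Kif11, the motor that pushes spindle poles apart, were lowest, at 1.27 and 1.33 times. The density alone would give 4.03% of the reads of Mcm2 to Mcm7 but 33.5% of those of Mki67 and Top2a together.

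**Figure D1:**
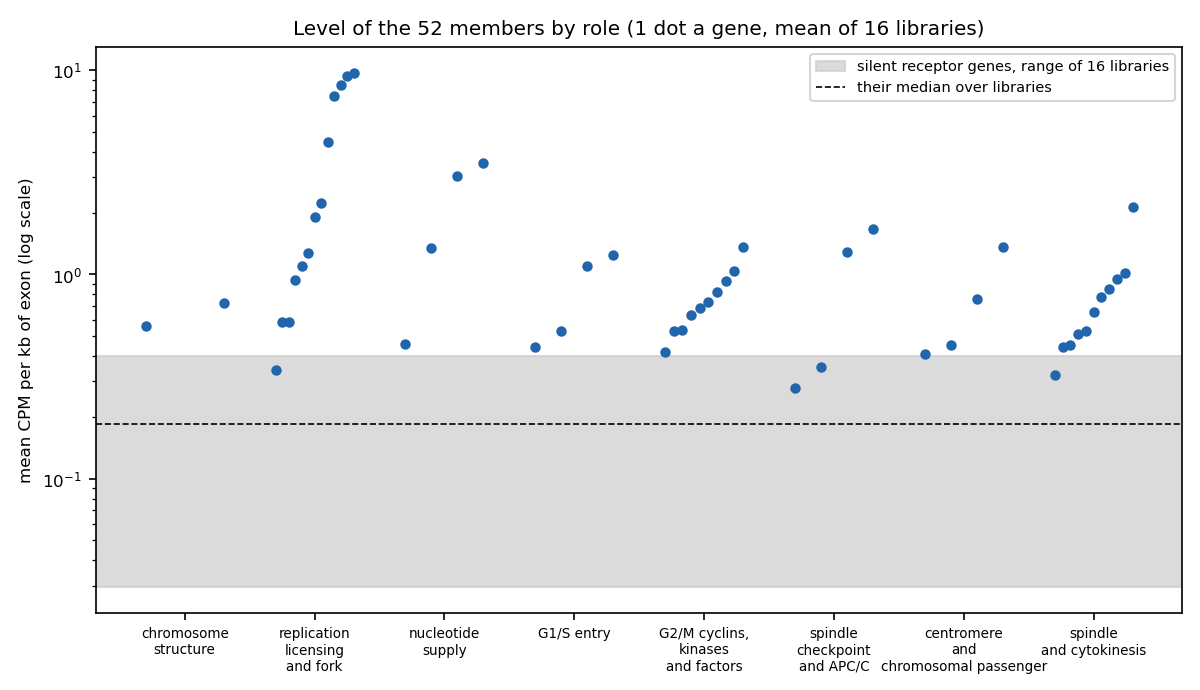
Mean CPM per kb of exon (log scale, 16 libraries) of each of the 52 members by role, with the range and the median of the receptor gene density shaded and dashed. The MCM ring genes and Pcna sit far above the shaded band, while most mitotic genes sit within a few fold of it.

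After MCAo in CTRL, 40 of 52 members had a positive log2 fold change and the median was 0.36, against 0.07 over all genes tested. None of the 52 passed an adjusted p under 0.1 (edgeR's quasi-likelihood test with Benjamini-Hochberg adjustment), where 0.216% of all genes did. At an unadjusted p under 0.05, 8 members passed, all higher after MCAo, against 3.5% of all genes. In 7 members every MCAo library lay above every sham library, against 2.24% of all genes, and in 1 member, Aurka, every MCAo library lay below, against 1.9%. The 7 were Mki67, Top2a, Cdc45, Ube2c, Cenpe, Cenpf and Nusap1, and they kept this order when the receptor gene density was taken off each value and when factors from abundant genes were used.

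Mki67, which coats mitotic chromosomes and is the standard mark of cycling cells, stood at 4.21, 4.22, 3.11 and 4.87 CPM in the CTRL sham libraries. In CTRL MCAo it stood at 22.0, 10.7, 9.36 and 8.75 CPM. Every MCAo value was above every sham value, with 1 library far above the rest. The log2 fold change was 1.63 ± 0.39 (SE), with an adjusted p of 0.131 in edgeR, 0.00443 in DESeq2 and an exact permutation p of 0.0286 (two-sided, log2(CPM + 1), n = 4 a group), the smallest p that 70 assignments allow. Without CTRL MCAo replicate 1 the log2 fold change was 1.28.

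Top2a, the topoisomerase that untangles sister chromosomes, was at 3.89, 3.82, 3.03 and 2.99 CPM in CTRL sham and at 7.80, 8.40, 5.36 and 5.41 in CTRL MCAo. The groups did not overlap, and the log2 fold change was 0.97 ± 0.32 with an adjusted p of 0.714 in edgeR. Cenpf, a large protein of the kinetochore, was at 5.55, 4.33, 4.12 and 4.29 CPM in sham and at 10.8, 9.99, 8.75 and 6.55 after MCAo, with a log2 fold change of 0.98 ± 0.36. The kinetochore is where spindle fibres hold a chromosome, and the related motor Cenpe differed by 0.49 ± 0.23 on the log2 scale. Ube2c, which hands ubiquitin to the anaphase-promoting complex, was at 0.192, 0.741, 0.155 and 0.520 CPM in sham and at 1.17, 1.38, 1.49 and 1.38 after MCAo. These Ube2c values rest on few reads, and its exons share 592 bases with Tnnc2 on the opposite strand.

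Cdc45, part of the active helicase, was named after its values were seen. It was at 2.62, 3.65, 4.04 and 2.92 CPM in CTRL sham and at 6.35, 5.58, 6.38 and 4.72 in CTRL MCAo, with no overlap and a log2 fold change of 0.80 ± 0.28, and its exons share 209 bases with Ufd1 on the opposite strand. Ccnb2, a B-type cyclin of mitosis, was at 0.894, 0.912, 0.389 and 0.260 CPM in sham and at 2.90, 2.20, 1.29 and 0.818 after MCAo, and here the groups overlapped.

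**Figure D2:**
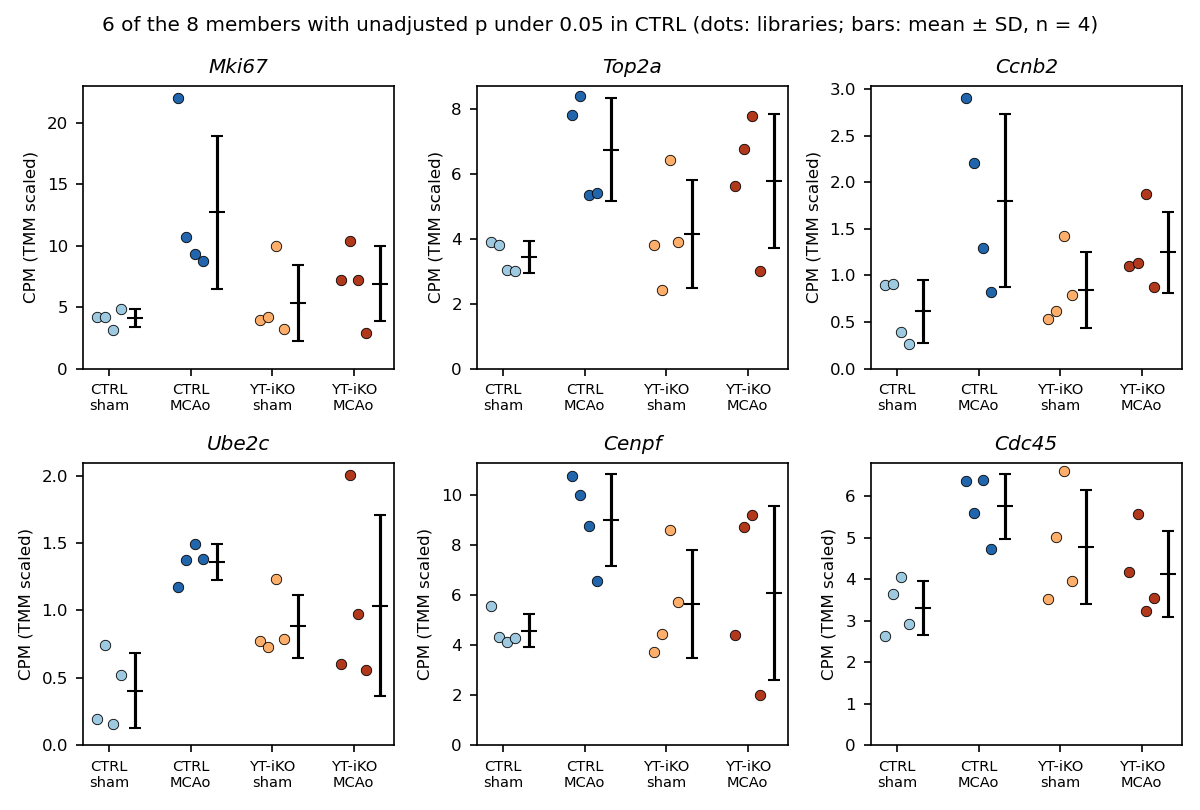
TMM-scaled CPM of 6 members in each library (dots), with mean ± SD (n = 4) at the side of each group. The 6 were taken from the 8 members with an unadjusted p under 0.05 after MCAo in CTRL (edgeR). Since they were picked by their CTRL values, the panels cannot compare the genotypes for the members as a whole. CTRL MCAo lies above CTRL sham in 5 of the 6 panels with no overlap, while both YT-iKO groups overlap in all of them.

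Not every mitotic gene followed. Cdk1, the kinase that starts mitosis, was at 1.53, 1.88, 1.87 and 2.34 CPM in CTRL sham and at 2.28, 2.48, 3.87 and 2.39 in CTRL MCAo, so the groups overlapped. Ccna2, the cyclin of S phase and G2, had means of 2.87 ± 0.308 (SD) and 2.89 ± 0.640 CPM. Ccnb1, the partner of Cdk1, was at 0.544 to 1.99 CPM in sham and 1.17 to 3.05 after MCAo. Aurka, a kinase of the spindle poles, was at 3.58 to 3.96 CPM in sham and at 2.42 to 3.46 after MCAo, a log2 difference of -0.43 ± 0.31, and its groups overlapped with factors from abundant genes alone but not with the density taken off, with or without those factors. Cdc20, the activator of the anaphase-promoting complex, Cenpa, the histone of centromeres, and Ect2, which triggers the contractile ring, had log2 differences of 0.35 ± 0.34, -0.16 ± 0.23 and 0.51 ± 0.33.

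In YT-iKO, 36 of 52 members had a positive log2 fold change after MCAo and the median was 0.12, against -0.02 over all genes. No member passed an adjusted p under 0.1, where 0.318% of all genes did, and no member had an unadjusted p under 0.05, against 3.01% of all genes. Gins1, a subunit of the GINS part of the helicase, was the 1 member in which every MCAo library lay above every sham library, against 0.785% of all genes, and no member lay below in every library, against 0.499%. This count moved with the scale: 4 members (Cdt1, Mcm5, Gins1 and Bub1) lay above with the receptor gene density taken off, none with factors from abundant genes, and 2 (Gins1 and Bub1), with Ccna2 below, with both. The share of all genes was not counted on these other scales, so these counts have no background to be read against. Gins1 was at 1.54, 1.01, 1.30 and 1.12 CPM in YT-iKO sham and at 2.01, 1.94, 2.53 and 1.74 after MCAo, a log2 difference of 0.72 ± 0.37 with an unadjusted p of 0.0641 in edgeR.

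Mki67 was at 3.95, 4.16, 9.98 and 3.23 CPM in YT-iKO sham and at 7.17, 10.4, 7.19 and 2.93 in YT-iKO MCAo. The highest sham value came from replicate 3 and the lowest MCAo value from replicate 4, the libraries with the highest and the lowest receptor gene density. The log2 fold change was 0.38 ± 0.38 in edgeR, with an exact permutation p of 0.486 (n = 4 a group). It depended on single libraries. It was 0.85 without sham replicate 3, 0.64 without MCAo replicate 4 and 0.12 without MCAo replicate 2, none of them called. With limma-voom it was 0.93 with an adjusted p of 0.0487, where 18.1% of all genes were called. Top2a was at 3.81, 2.42, 6.41 and 3.89 CPM in sham and at 5.62, 6.77, 7.77 and 2.99 after MCAo, again with overlap and with the same libraries at the edges. Cdc45 was at 3.52, 5.001, 6.61 and 3.95 CPM in sham and at 4.16, 5.58, 3.24 and 3.55 after MCAo, a log2 difference of -0.20 ± 0.28.

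**Figure D3:**
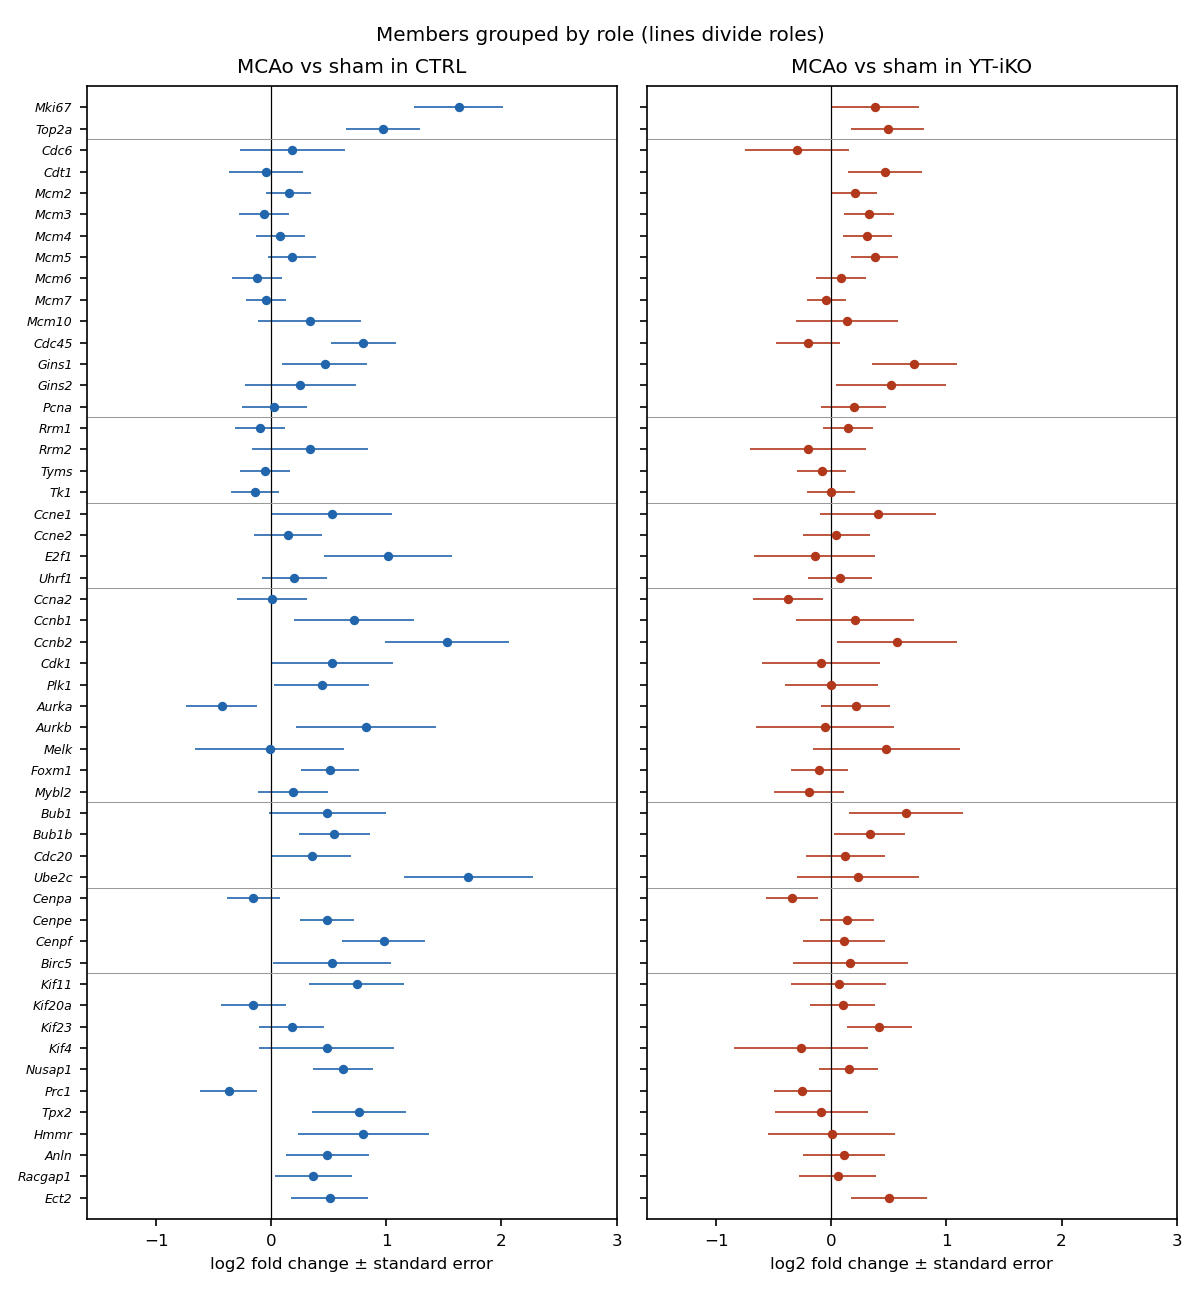
Log2 fold change ± standard error of each member after MCAo in CTRL (left) and YT-iKO (right), with lines between roles. Points in CTRL reach 1.71 (Ube2c) and 1.63 (Mki67), and those in YT-iKO stay between -0.38 and 0.72.

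The difference between the responses was tested directly. No member passed an adjusted p under 0.1, and neither did any of the 31085 genes (0.0%), with 116 genes at an unadjusted p under 0.05 (0.373%). DESeq2 called none either. Of the members, 2 had an unadjusted p under 0.05. For Mki67 the response in YT-iKO less that in CTRL was -1.25 ± 0.54 on the log2 scale, with an unadjusted p of 0.0302. It was -0.77 without YT-iKO sham replicate 3, ran from -1.50 to -0.92 in the other fits without 1 library, and was -0.45 with limma-voom, with no call in any of them. For Cdc45 the difference was -1.004 ± 0.39 with an unadjusted p of 0.0187, and neither was called in edgeR after adjustment. The median difference over the members was -0.22, against -0.02 over all genes, with 34 of 52 negative. It was -0.86 for the 2 chromosome structure genes, Mki67 and Top2a, and -0.47 for the 10 G2/M cyclins, kinases and transcription factors. For the 13 replication licensing and fork genes it was 0.20. The other roles had -0.37 (spindle and cytokinesis), -0.36 (centromere and chromosomal passenger), -0.22 (spindle checkpoint and APC/C), -0.12 (G1/S entry) and 0.05 (nucleotide supply). A p that misses the threshold does not show equal responses: the standard errors here allow sizable differences in either direction for most mitotic members.

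Averaged over both genotypes, 41 of 52 members were higher after MCAo, with a median log2 fold change of 0.23 against 0.03 over all genes. Mki67 rose by 1.00 ± 0.27 on the log2 scale with an adjusted p of 0.0988 in edgeR, and it was the 1 member called, where 1.23% of all genes were. The call was lost in 13 of the 16 fits that left out 1 library, with adjusted p from 0.00448 to 0.272, while the log2 fold change stayed between 0.82 and 1.23. Top2a had 0.73 ± 0.23 with an adjusted p of 0.213, Ccnb2 1.05 ± 0.37, Ube2c 0.97 ± 0.38 and Gins1 0.59 ± 0.26. In this average 8 members had an unadjusted p under 0.05, all higher, against 5.82% of all genes.

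Between genotypes, no member passed an adjusted p under 0.1 after sham, where 0.0965% of all genes did, or after MCAo, where 0.0708% did. After sham, E2f1, a transcription factor of S phase entry, was at 1.02, 0.912, 1.32 and 0.195 CPM in CTRL and at 1.06, 1.80, 3.30 and 2.37 in YT-iKO. The log2 difference of 1.30 ± 0.55 had an unadjusted p of 0.0282, and it was the 1 member with an unadjusted p under 0.05 after sham, against 2.16% of all genes. After MCAo, Mki67 was lower in YT-iKO by a log2 difference of -0.88 ± 0.38 with an unadjusted p of 0.0291, again the 1 member under 0.05, against 1.49% of all genes, and the groups overlapped. Over the alternative fits this difference ran from -1.42 to -0.44. It was called only without the 3 libraries of highest density (-1.42, adjusted p = 0.0784 in edgeR).

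The replication genes that bECs express well showed little change. Mcm6 was at 45.5 to 52.4 CPM in CTRL sham, 33.1 to 54.6 in CTRL MCAo, 32.01 to 49.4 in YT-iKO sham and 37.1 to 61.5 in YT-iKO MCAo. Over Mcm2 to Mcm7, the log2 fold change after MCAo was between -0.13 and 0.18 in CTRL and between -0.04 and 0.38 in YT-iKO. Their standard errors were 0.17 to 0.22. The 6 genes summed to 148 ± 7.89 (SD), 146 ± 25.6, 137 ± 12.7 and 156 ± 36.2 CPM in the sham and MCAo groups of CTRL and then of YT-iKO. Pcna, the sliding clamp of the replication fork, was at 16.9 to 29.9 CPM in CTRL sham and 17.6 to 31.7 in CTRL MCAo. Tk1, which recovers thymidine, had a log2 difference of -0.14 ± 0.21 in CTRL. Rrm2, the regulated subunit of the enzyme that makes deoxynucleotides, was low, with 1.20 ± 0.479 CPM in CTRL sham and 1.51 ± 0.598 in CTRL MCAo. Uhrf1, which keeps DNA methylation after replication, and Ccne1, the cyclin of S phase entry, differed by 0.20 ± 0.28 and 0.53 ± 0.52 in CTRL. Kif23 ran from 11.3 to 32.7 CPM over all libraries.

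**Figure D4:**
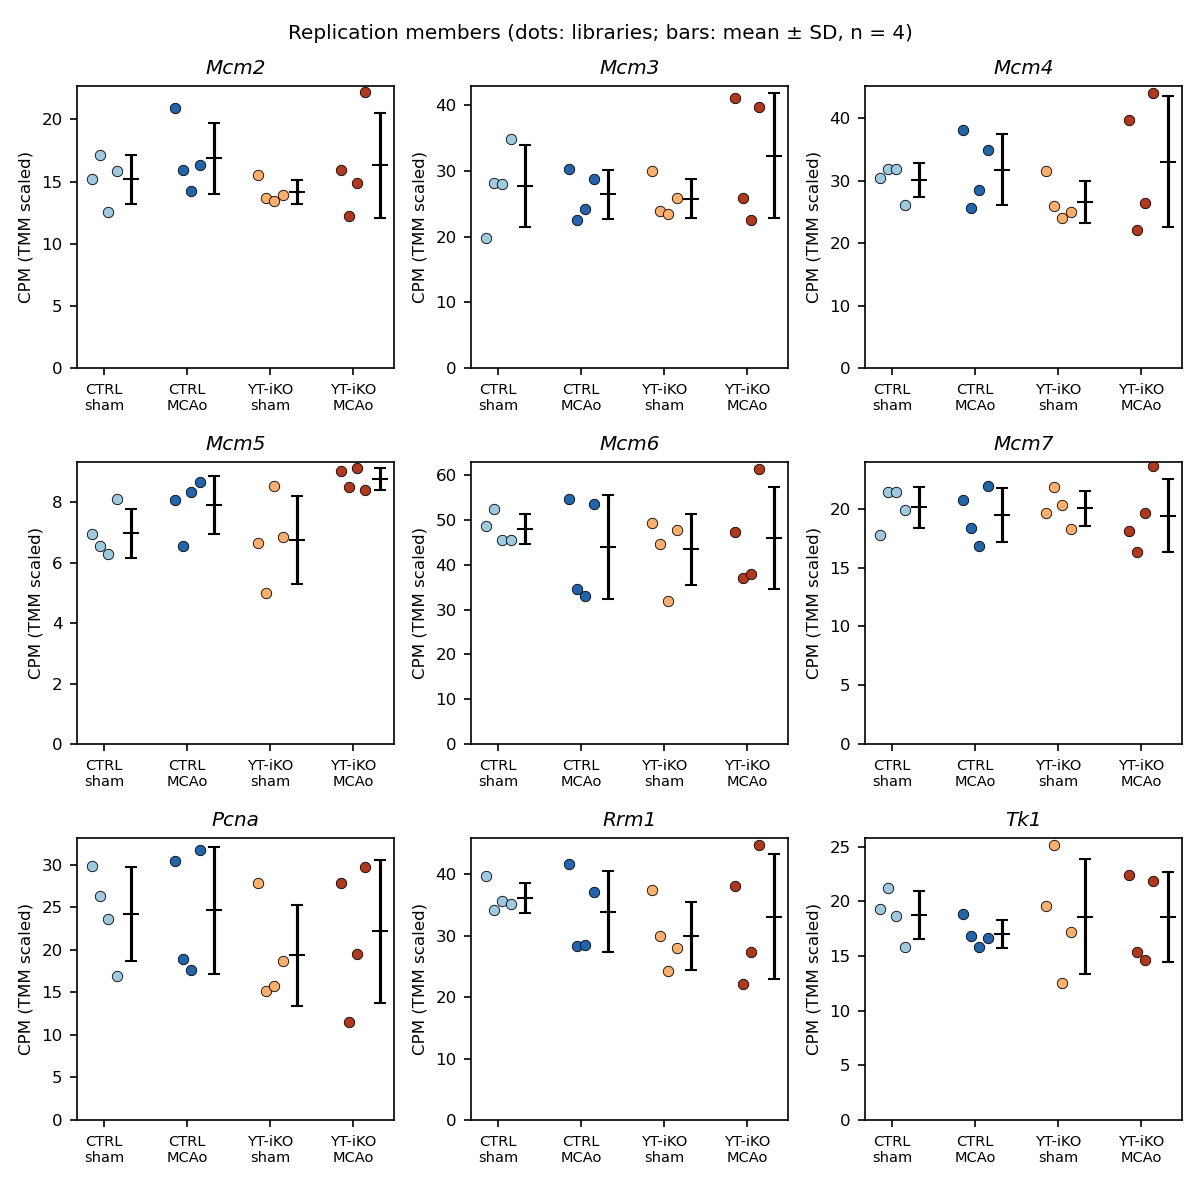
TMM-scaled CPM of 9 replication members in each library, with mean ± SD (n = 4). The groups overlap in each panel, both between sham and MCAo and between genotypes.

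The summed level of the 31 G2/M and mitosis members was high at high receptor gene density and lowest at the lowest, but did not follow it in between. For example, it was 128 CPM in YT-iKO MCAo replicate 1 at a density of 0.155, and 108 CPM in CTRL sham replicate 2 at 0.206. The sum also holds the reads expected from the density itself. The sum was lowest, at 93.5 CPM, in YT-iKO MCAo replicate 4, and highest, at 171 CPM, in YT-iKO sham replicate 3. Of these 31 genes, 15 were lowest in YT-iKO MCAo replicate 4 and 16 were highest in 1 of the 3 libraries of highest density. No share of all genes stands beside these counts, so they have no background to be read against. CTRL MCAo replicate 1 departed from high sums at high density, with 163 CPM at a density of 0.123. Mcm2 to Mcm7 went the other way, from 199.5 CPM in YT-iKO MCAo replicate 4 to 122 in YT-iKO sham replicate 3. This order depended on the scaling: with factors from abundant genes these libraries were at 146 and 163 CPM, and the 3 libraries of highest density had the highest MCM sums, 161 to 165 CPM. With the expected reads of the density taken off, the summed mitotic members were 73.2 to 80.2 CPM in CTRL sham, 90.0 to 142 in CTRL MCAo, 68.9 to 103 in YT-iKO sham and 88.5 to 101 in YT-iKO MCAo. On this scale CTRL MCAo lay above CTRL sham in every library, and the YT-iKO groups overlapped. With the density taken off and factors from abundant genes, the ranges were 68.8 to 75.35, 82.2 to 134, 62.1 to 138 and 64.7 to 128 CPM, with the same overlap and a wider spread in YT-iKO MCAo. With the density as a covariate in edgeR, 6 members passed an adjusted p under 0.1 in CTRL (Mki67, Top2a, Cdc45, Ccnb2, Ube2c and Cenpf), where 2.46% of all genes did, and none in YT-iKO, where 1.74% did. The difference of the MCAo responses gave 0 members in that fit, where 1 of all 31085 genes (0.00322%) was called.

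**Figure D5:**
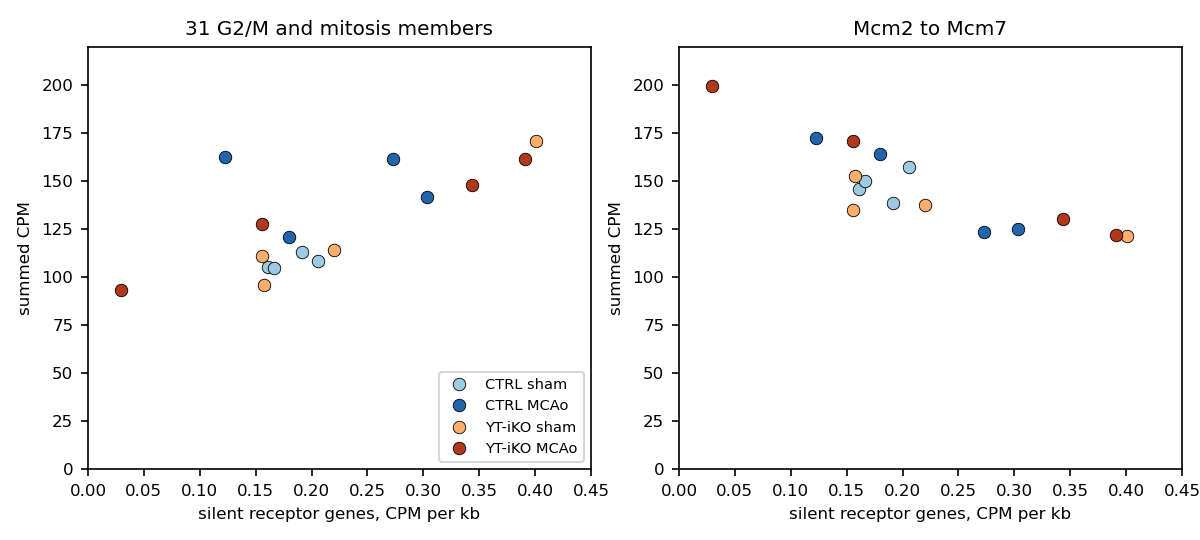
Summed CPM of the 31 G2/M and mitosis members (left) and of Mcm2 to Mcm7 (right) against the density of reads on receptor genes (CPM per kb), 1 dot a library coloured by group. The mitotic sum is highest at high density apart from CTRL MCAo replicate 1, and the MCM sum on this scale is lowest there, while with factors from abundant genes it is highest there.

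Reads also fell on markers of other cells, and their part in these results was not tested. The reads expected from the receptor gene density were not taken off these sums. Over all libraries the 9 pericyte and smooth muscle markers summed to 480 to 1423 CPM, the 6 oligodendrocyte precursor markers to 83.5 to 192 and the 7 astrocyte markers to 63.6 to 114, against 93.5 to 171 for the 31 mitotic members and 10909 to 23600 for the 12 endothelial markers. In these 3 lists sham and MCAo overlapped in CTRL. The 6 fibroblast markers summed to 19.7 to 22.9 CPM in CTRL sham and to 31.6 to 39.2 in CTRL MCAo, and the 6 oligodendrocyte markers to 20.9 to 27.5 and to 27.7 to 33.1. In both lists the groups did not overlap, in the same direction as Mki67. In YT-iKO both overlapped, with fibroblast sums of 20.7 to 40.1 CPM after sham and 30.8 to 42.2 after MCAo. The 12 microglia and macrophage markers summed to 25.6 to 42.6 CPM in CTRL sham, 28.3 to 36.0 in CTRL MCAo, 25.3 to 47.6 in YT-iKO sham and 25.7 to 44.0 in YT-iKO MCAo. In the CTRL groups the 8 monocyte and neutrophil markers were at 8.84 to 11.6 and 9.63 to 20.2 CPM, the 8 lymphocyte markers at 8.17 to 10.6 and 7.18 to 14.8, the 6 neuron markers at 12.8 to 18.3 and 11.9 to 21.6, and the red cell markers at 4.90 to 26.6 and 6.20 to 14.5, all with overlap. In YT-iKO the monocyte and neutrophil, lymphocyte and neuron sums ran from 2.18, 3.37 and 3.30 CPM in YT-iKO MCAo replicate 4 to 22.9, 23.3 and 36.3 in YT-iKO sham replicate 3. These libraries had the lowest and the highest mitotic sum, and also the lowest and the highest receptor gene density (0.0295 and 0.401 CPM per kb). Averaged over both genotypes, 3 of these markers were called after MCAo in edgeR, all higher, where 0.933% of all genes were called higher. They were Dcn (log2 fold change 2.13 ± 0.38, adjusted p = 0.00453) and Col1a2 (0.77 ± 0.17, adjusted p = 0.0252) of the 6 fibroblast markers and Gfap (0.80 ± 0.19, adjusted p = 0.0368) of the 7 astrocyte markers. No marker of the other lists was called.

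Other genes of the cycle were read from lists of 101 genes, 99 of them tested. After MCAo, averaged over both genotypes, 2 were called higher and 2 lower, against 0.933% and 0.299% of all genes. Wee1, the kinase that restrains Cdk1, rose by 0.79 ± 0.17 with an adjusted p of 0.0160 in edgeR, and within YT-iKO by 1.18 ± 0.23 with an adjusted p of 0.0307, a call lost without YT-iKO sham replicate 2 or 4 (log2 fold changes of 1.08 and 1.14). In CTRL its log2 fold change was 0.40, and the difference of the responses was 0.78, neither of them called in any fit. Cdk6, a kinase of G1, rose by 0.73 ± 0.16 (adjusted p = 0.0214 in edgeR). Cdkn1c, an inhibitor of cyclin-dependent kinases, fell by 0.62 ± 0.15, and Ccnd1, the D cyclin of G1, fell by 0.67 ± 0.17, with adjusted p of 0.0439 and 0.0548 in edgeR. Both decreases lost their calls without CTRL sham replicate 2, CTRL MCAo replicate 2 or YT-iKO sham replicate 4, with log2 fold changes of -0.61 to -0.58 for Cdkn1c and -0.70 to -0.56 for Ccnd1. Ccnd1 also lost its call without CTRL MCAo replicate 4 (-0.69) or YT-iKO MCAo replicate 3 (-0.65). Cdkn2b, an inhibitor of Cdk4 and Cdk6, was lower in YT-iKO than in CTRL after MCAo by a log2 difference of -1.04 ± 0.19 (adjusted p = 0.0460 in edgeR). Its values were 16.5 to 22.3 CPM in CTRL MCAo and 6.77 to 10.6 in YT-iKO MCAo, with no overlap. Its call was lost without any 1 of the 5 libraries just named, at log2 differences of -1.11 to -0.97. After sham the log2 difference was -0.86 ± 0.19 (adjusted p = 0.172 in edgeR, 0.0126 in DESeq2), and the difference of the responses was -0.18 ± 0.27, so the lower level was not shown to be particular to MCAo. Cdkn1a, the inhibitor p21, was at 79.0 ± 9.59 CPM in CTRL sham and 55.2 ± 16.4 in CTRL MCAo, and was not called in the main edgeR fit. With limma-voom it was called lower after MCAo in CTRL (-0.77, adjusted p = 0.0150), where 24.2% of all genes were called. In YT-iKO it was also called with limma-voom (-0.87, adjusted p = 0.0448), where 18.1% of all genes were. Averaged over both genotypes it was called with limma-voom (-0.82, adjusted p = 0.000504), where 54.7% of all genes were. It was also called in that average in edgeR with the density as a covariate (-0.46, adjusted p = 0.0712), where 6.81% were. None of these genes was called for the difference of the MCAo responses.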

How the data were processed

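RNA of sorted bECs was amplified with a SMART-Seq Ultra Low Input kit and sequenced in 16 libraries. Per the labels, paired-end reads were aligned to GRCm38 by STAR 2.7.8a, and the authors deposited raw counts per gene. The counting program, its use of strand and the row filter are not given in the sources used here. Reads carry no molecular identifiers. Members and gene lists were chosen with earlier results of these data known.

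Counts were fitted with edgeR 4.0.16 (quasi-likelihood test, TMM factors, filterByExpr at min.count 10 and min.total.count 15), all 4 groups in 1 model, in R 4.3.3. Benjamini-Hochberg adjustment ran over all 31085 genes tested, and genes below 0.1 are called. Single genes were also tested by exact permutation on log2(CPM + 1). Exon lengths came from GENCODE M21 on GRCm38, which matched 36861 of 37003 genes. The density of receptor genes is their summed CPM divided by their summed exon length. Alternatives were DESeq2 1.42.0, limma 3.58.1 (voom with sample quality weights), RLE factors, other filters, only the groups compared, a replicate block, the density as a covariate, each library left out, and, chosen after seeing the data, factors from genes of at least 10 CPM and a fit without the 3 libraries of highest density. The fits were tested on simulated data.

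The rule for naming members with values took a fixed set (Mki67, Top2a, Cdk1, Ccna2, Ccnb1, Pcna, Rrm2, E2f1 and Mcm2 to Mcm7) and any member called. In each role it also took the member highest per kb and the one with the smallest p averaged over both genotypes. Cdc45 was added after its values were seen, and Cenpe, Rrm1, Bub1 and Kif11 were given single values outside this rule. Pools are the replicates, and p-values measure the spread between them.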

Additional observations from a re-analysis of the deposited data

Results flagged for a closer look

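For the members named by the rule above and Cdc45, 108 groups of 4 values were examined. In these, 7 values, from 5 libraries, stood far from the other 3 of their group, and chance alone marks about 1 in 20 groups. Mki67 was highest in CTRL MCAo replicate 1, at 22.0 CPM, and in YT-iKO sham replicate 3, at 9.98 CPM. Rrm2 at 2.40 CPM and Ube2c at 1.23 CPM were also highest of their group in YT-iKO sham replicate 3. Cdc20 stood at 4.26 CPM in YT-iKO MCAo replicate 2. Both of these YT-iKO libraries are among the 3 with the highest receptor gene density. Cdk1 stood at 3.87 CPM in CTRL MCAo replicate 3, and Cenpf at 5.55 CPM in CTRL sham replicate 1.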

How the results depend on the processing

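For MCAo against sham in CTRL, the count of members called was 0, and it was 1, Mki67, with DESeq2 (0.549% of all genes), 4 with only the groups compared (2.52%), 20 with limma-voom (24.2%), 6 with the density as a covariate (2.46%), 4 without the 3 libraries of highest density (1.86%), and 0 to 1 without 1 library (0.0791% to 0.492%). In YT-iKO it was 0, and 14 with limma-voom (18.1%) and 2 (Mcm4 and Kif23) without the 3 libraries (4.34%). Averaged over both genotypes it was 1, and 2 with DESeq2 (2.07%), 34 with limma-voom (54.7%), 7 with the density as a covariate (6.81%), 0 with factors from abundant genes (5.12%), 3 without the 3 libraries (6.24%), 0 at an adjusted p under 0.05 (0.885%), and 0 to 3 without 1 library (0.748% to 1.83%). For the genotypes after MCAo the count was 0, and 2 (Mki67 and Cenpf, lower in YT-iKO) without the 3 libraries, where 1.47% of all genes were called. The difference of the MCAo responses gave 0 members in every fit that was run. Hardly any gene of the whole table was called for it either: 0.00322% (1 gene) with the density as a covariate, and 0.0% in each other fit.

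The median log2 fold change in YT-iKO was 0.46 with limma-voom, against 0.20 over all genes, and that fit also turned Cdk1 there from -0.09 to 0.97. Without the 3 libraries the median was -0.68 for the genotypes after MCAo and -0.58 for the difference of the responses, where all genes had -0.42 and -0.38. Factors from abundant genes moved the median of all genes from 0.07 to 0.21 in CTRL and from 0.11 to 0.30 between genotypes after sham. The members then had medians of 0.54 (CTRL) and 0.11 (YT-iKO), and 0.06 in place of -0.01 between genotypes after MCAo. The cause was not tested. Without 1 library, the median stayed between 0.26 and 0.47 in CTRL and between -0.03 and 0.30 in YT-iKO.

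With a replicate block the counts were 0 in CTRL, 0 in YT-iKO and 1 in the average, the same as without it, while 0.383%, 0.425% and 1.44% of all genes were called, against 0.216%, 0.318% and 1.23%. The numbers were not read as pairs, since not every same-number pair of libraries had deviations correlated above 0.1 (15 of 24 did). The median correlation was 0.199 for same-number pairs and -0.115 for pairs of different numbers. With only the groups compared, Wee1 in YT-iKO was no longer called (1.08). Most mitotic members stood at a few CPM or less, the common dispersion over all genes was 0.16, and how far depth limited the calls was not tested.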
